A study of Mus musculus with 26 samples.

Results

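The ATAC-seq peak list of Adnp mutant mouse cortex held 6853 gene-body peaks with no counterpart in the wild-type list. They were chosen by 3 conditions: no base shared with any wild-type peak, more than 1 kb between the peak and every annotated gene start, and overlap with the body of a gene (from its first to its last annotated exon base). They made up 57.9% of the 11839 gene-body peaks of the mutant list, and 44.1% of all 30862 mutant peaks lacked a wild-type counterpart. A gene whose body holds such a peak is called a host here, and there were 4322 hosts among 55487 annotated genes. The peak lists themselves chose the members, so absence from the wild-type list, width and place are descriptions and were not tested. The RNA of the hosts comes from another assay and was tested.

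The series has 26 samples of mouse frontal cortex. Animals labelled HET were heterozygous for a frameshift in Adnp, and WT animals were littermates with intact alleles; the series text calls the RNA-seq animals adolescent. RNA was sequenced from 7 HET and 7 WT animals, with 33280785 to 47079906 counts per HET library and 32814841 to 48291175 per WT library. Of the 8 ATAC-seq samples, 3 were labelled mutant, 3 wild-type, 1 PAT and 1 Control; the lists used here are 1 merged list for HET and 1 for WT, and the others were not analysed here, nor were the 4 Hi-C samples. The name of the merged mutant list carries the tags MT1 and HET3, and that of the WT list WT1 and WT3. Whether MT and HET mean the same genotype is not said in these names, and the mutant list is called HET here. Beyond these names, the sources used here do not say which ATAC-seq libraries were merged into each list. No library or replicate can be seen in the merged lists, and the peaks carry no height, so that a site absent from the WT list may lie just under the caller's threshold there. The WT list held 19272 peaks against 30862 in the HET list, and the sources used here do not give the read depth of either list.

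ATAC-seq uses the Tn5 transposase to cut and tag DNA that is not wrapped tightly in nucleosomes, and a peak is a stretch where these cuts pile up. Open sites inside gene bodies include enhancers, binding sites of architectural and activity-regulated factors, and starts of shorter transcripts. Adnp is a zinc-finger homeodomain protein that binds DNA together with the remodeller Chd4 and heterochromatin proteins in the ChAHP complex, which restrains chromatin opening at its sites. The Adnp gene held none of the peaks described here, and its RNA level did not separate the genotypes. The lowest, median and highest HET values were 5.34, 6.43 and 8.68 counts per 1000000 (CPM, scaled for library composition), and those of WT were 5.67, 6.19 and 7.84. A count of all reads of the gene does not distinguish the frameshift allele from the intact allele.

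A small number of the peaks lay over starts of shorter transcripts of their host, and their sequence could be read from RefSeq's table of start windows (build GRCm38.p6, the coordinates of the mm10 lists). Each window runs from 250 bases before a RefSeq transcript start to 50 bases after it. Of the 6853 peaks, 177 (2.58%) touched such a window, and for 139 of them it was a window of the host itself. The start base lay inside the peak for 145. Below are the bases before the start for 8 hosts, with the part inside the HET-only peak in capitals and the remainder in lower case. Prkar1b has the widest HET-only peak of all, E2f2 is the only host in this class whose RNA passed the test, and the others were picked, after their values were seen, as neuronal genes or as an example of a motif match.
Prkar1b: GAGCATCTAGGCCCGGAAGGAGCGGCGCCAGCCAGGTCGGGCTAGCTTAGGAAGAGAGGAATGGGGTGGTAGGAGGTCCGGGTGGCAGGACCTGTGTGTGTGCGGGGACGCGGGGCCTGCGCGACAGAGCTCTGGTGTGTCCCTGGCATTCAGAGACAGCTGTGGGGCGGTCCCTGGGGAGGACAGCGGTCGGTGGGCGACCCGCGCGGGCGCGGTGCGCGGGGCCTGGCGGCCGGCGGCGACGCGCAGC
E2f2: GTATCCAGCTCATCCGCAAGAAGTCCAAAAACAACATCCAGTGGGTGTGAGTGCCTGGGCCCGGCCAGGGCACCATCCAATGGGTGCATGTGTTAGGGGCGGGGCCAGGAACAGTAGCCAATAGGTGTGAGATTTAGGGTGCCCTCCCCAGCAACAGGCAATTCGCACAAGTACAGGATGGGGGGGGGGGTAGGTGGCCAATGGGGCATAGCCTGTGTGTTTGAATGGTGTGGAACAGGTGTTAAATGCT
Cntn1: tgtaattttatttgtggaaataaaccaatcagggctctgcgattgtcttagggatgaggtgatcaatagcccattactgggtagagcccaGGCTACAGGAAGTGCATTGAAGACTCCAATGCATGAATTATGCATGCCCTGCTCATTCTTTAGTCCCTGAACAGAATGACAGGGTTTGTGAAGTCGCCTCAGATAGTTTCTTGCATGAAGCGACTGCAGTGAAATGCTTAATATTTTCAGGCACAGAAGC
Cacnb3: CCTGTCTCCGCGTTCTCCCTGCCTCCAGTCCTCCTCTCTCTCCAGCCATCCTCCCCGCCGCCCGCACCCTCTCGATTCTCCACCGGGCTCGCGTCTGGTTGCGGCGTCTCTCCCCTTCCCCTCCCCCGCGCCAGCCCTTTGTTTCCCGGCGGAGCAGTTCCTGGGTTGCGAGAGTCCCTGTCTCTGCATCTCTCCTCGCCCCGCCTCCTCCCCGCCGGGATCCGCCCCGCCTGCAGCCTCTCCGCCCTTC
Kalrn: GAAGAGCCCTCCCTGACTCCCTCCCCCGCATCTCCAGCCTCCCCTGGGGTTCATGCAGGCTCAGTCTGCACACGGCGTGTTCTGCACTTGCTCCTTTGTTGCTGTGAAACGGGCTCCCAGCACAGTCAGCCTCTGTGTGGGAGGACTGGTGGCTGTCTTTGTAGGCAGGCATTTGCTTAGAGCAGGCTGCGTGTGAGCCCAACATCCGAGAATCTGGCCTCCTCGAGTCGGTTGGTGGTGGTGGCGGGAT
Egr2: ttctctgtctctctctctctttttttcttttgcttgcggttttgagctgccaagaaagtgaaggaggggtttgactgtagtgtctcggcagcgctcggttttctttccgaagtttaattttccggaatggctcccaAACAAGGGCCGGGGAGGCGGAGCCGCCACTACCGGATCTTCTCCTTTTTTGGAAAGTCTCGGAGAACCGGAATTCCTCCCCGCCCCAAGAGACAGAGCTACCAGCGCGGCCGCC
Tbr1: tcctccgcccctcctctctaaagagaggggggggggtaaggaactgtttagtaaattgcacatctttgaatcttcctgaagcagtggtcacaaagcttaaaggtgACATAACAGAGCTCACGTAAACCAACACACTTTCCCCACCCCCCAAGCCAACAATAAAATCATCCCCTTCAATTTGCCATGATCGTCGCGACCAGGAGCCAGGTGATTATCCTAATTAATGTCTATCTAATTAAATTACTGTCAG
Arhgap18: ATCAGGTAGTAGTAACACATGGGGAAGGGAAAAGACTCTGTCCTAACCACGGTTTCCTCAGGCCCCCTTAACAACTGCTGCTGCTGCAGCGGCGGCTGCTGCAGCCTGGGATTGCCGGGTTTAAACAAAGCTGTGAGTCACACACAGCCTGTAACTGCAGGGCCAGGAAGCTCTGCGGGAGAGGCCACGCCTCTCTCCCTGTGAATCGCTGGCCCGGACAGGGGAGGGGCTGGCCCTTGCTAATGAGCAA

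The Prkar1b stretch, chr5:139129753-139130002 on the minus strand, belongs to a regulatory subunit of the cAMP-dependent protein kinase. It lay wholly inside a peak of 1240 bp that was 19.8 kb from the nearest Ensembl gene start, and it had 72.8% GC and 27 CpG dinucleotides. The E2f2 stretch, chr4:136180532-136180781 on the plus strand, sat inside a 727 bp peak 7.71 kb from the nearest gene start and had 56.4% GC with 4 CpG. E2f2 is a transcription factor of the cell cycle. The Cntn1 stretch (chr15:92161107-92161356, plus strand, 160 of 250 bases inside the peak) belongs to an axonal adhesion molecule and had 3 CpG, while that of the calcium channel subunit gene Cacnb3 (chr15:98634517-98634766, plus strand) had 23. Both kinds of start, CpG-rich and CpG-poor, were therefore among the members.

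The remaining stretches were those of Kalrn (chr16:34514028-34514277, minus strand), Egr2 (chr10:67537316-67537565, plus strand), Tbr1 (chr2:61804203-61804452, plus strand) and Arhgap18 (chr10:26772262-26772511, plus strand). Kalrn encodes a guanine nucleotide exchange factor of dendritic spines, Egr2 an activity-regulated zinc-finger factor, Tbr1 a transcription factor of deep-layer cortical neurons, and Arhgap18 an activator of GTP hydrolysis by small GTPases. The peak covered 250 of the 250 bases shown for Kalrn, 114 for Egr2, 145 for Tbr1 and 250 for Arhgap18. The Arhgap18 stretch holds TGAGTCA, the AP-1 motif TGACTCA read from the opposite strand. The HET-only peak at Tbr1 was 92.1 kb from the nearest WT peak and that at Egr2 10.7 kb.

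Across all 197 window overlaps of HET-only peaks, the median GC content of the 300-base windows was 56.0% and the median number of CpG was 12. The 738 window overlaps of HET gene-body peaks shared with WT had 60.7% GC and 19 CpG, and all 32851 windows had 52.7% and 7. Short motifs were counted on both strands, with a window counted if the letters occurred anywhere in it. AP-1 (TGACTCA) was found in 17 windows (8.63%) of HET-only peaks, 3.25% of shared ones and 5.20% of all windows. The first letters of the MEF2 site (CTATTTT) were found in 8.12%, 1.76% and 4.22% in the same order, and the proneural E-box CAGATG in 19.3%, 15.4% and 17.2%. Several windows belong to the same gene and overlap, so these shares are descriptions, and a match is not evidence of binding.

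The EGR, CTCF and CREB motifs were less frequent in windows of HET-only peaks than in those of shared peaks. The EGR motif GTGGGCG occurred in 10.7% against 14.6% and the CTCF core AGGGGGC in 13.7% against 16.3%, with 7.97% and 10.6% over all windows. CRE (TGACGTC), the site of CREB, occurred in 2.54% against 5.28%, with 3.21% over all windows. The EGR and CRE letters contain CG, and the number of CpG differed between the classes as given above. The NFI motif TTGGCA occurred in 15.7% against 12.7%, the RFX motif GTTGCCA in 5.58% against 5.69%, and the SOX motif ACAATGG in 2.54% against 2.30%. Over all windows these 3 stood at 14.1%, 4.38% and 3.66%.

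Width set the HET-only peaks apart from the shared ones. HET-only gene-body peaks had a median width of 268 bp (quartiles 181 and 367), the 4986 HET gene-body peaks shared with WT 484 bp (358 and 635), and the 932 WT-only gene-body peaks 328 bp (289 and 396). Of the mutant gene-body peaks up to 200 bp wide, 2282 of 2593 (88.0%) had no WT counterpart. In classes up to 300, 400, 500 and 600 bp the share was 77.7%, 65.7%, 43.1% and 26.7%, and above 600 bp it was 11.2%. A narrow mutant peak thus usually lacked a WT counterpart and a wide one usually had it.

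**Figure D1:**
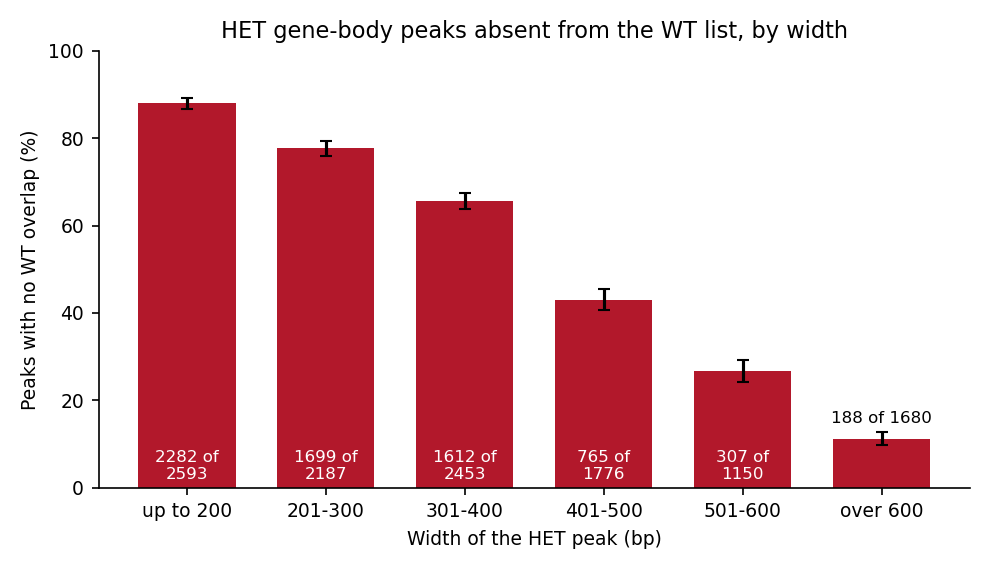
Share of HET gene-body peaks with no overlapping WT peak (y axis, %) by width of the HET peak in bp (x axis); numbers give the peaks without overlap and all peaks of the class, and bars carry 95% Wilson intervals that cover counting error only. The share falls from 88.0% in the narrowest class to 11.2% in the widest.

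The longer HET list and its narrower peaks bear on the count of members. When the HET list was limited to its 19272 widest peaks, as many as the WT list has, 5895 gene-body peaks were left and 2049 of them (34.8%) had no WT counterpart. The narrowest peak kept was then 345 bp. In the opposite direction, 932 of 5918 WT gene-body peaks (15.7%) had no HET counterpart. Of HET intergenic peaks 60.3% lacked a WT counterpart. Of HET peaks within 1 kb of a gene start, whether inside a gene body or not, 17.8% lacked one. For WT peaks these shares were 18.9% and 4.47%. The share in gene bodies was thus near that of intergenic sites in both lists and above that at gene starts. Whether list length or threshold accounts for it was not tested.

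Most HET-only peaks lay far from any WT peak. The median distance was 29788 bp (quartiles 12618 and 68825), and 161 peaks (2.35%) were within 1 kb of one. The closest were in P2rx7, an ATP-gated channel gene, with 2 bp between the peaks, in Snrpn and Snurf with 3 bp, and in Ago2 with 4 bp. Just outside the rule, a peak in Schip1 shared 1 base with a WT peak and a peak in Slc22a4 shared 3 bases. At the gene-start limit, the nearest members lay 1002 bp from a start, in Hcrt and in Ift140 with Tmem204, while peaks in Mrm1 at 1000 bp and in Eya4 at 999 bp fell outside.

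The widest HET-only peaks after that of Prkar1b were in Reep1, which encodes a protein that shapes the endoplasmic reticulum (1139 bp, chr6:71745923-71747061), and Zfp462, a zinc-finger protein gene (1096 bp, chr4:54948171-54949266). Those in Mir99ahg (1094 bp), a host transcript of microRNAs, and Plpp1 (1050 bp), a lipid phosphatase gene, followed. The postsynaptic scaffold gene Dlgap3 held a peak of 982 bp and the presynaptic scaffold gene Bsn one of 980 bp, both in introns. The Reep1 peak was 25.1 kb from the nearest WT peak, whereas the Zfp462 peak was 277 bp from one.

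HET-only peaks were mostly intronic. An exon of any gene was touched by 1125 of them (16.4%, 95% Wilson interval 15.6 to 17.3, counting error only), against 30.5% (29.2 to 31.8) of shared and 19.4% (17.0 to 22.1) of WT-only gene-body peaks. Wide peaks reach an exon more easily, so the centre of each peak was also placed: it lay in an exon for 10.6% of HET-only, 17.5% of shared and 10.8% of WT-only peaks. Exons took up 4.53% of the host bodies, and 434 HET-only peaks (6.33%) were wholly exonic. The exons used for counting do not separate coding from untranslated sequence. Among 998 peaks that touched an exon of a single host, the exon was internal in 725, the last in 251, the first in 9 and the only exon in 13. Few first exons can occur, because the rule left out 1 kb around each gene start.

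**Figure D2:**
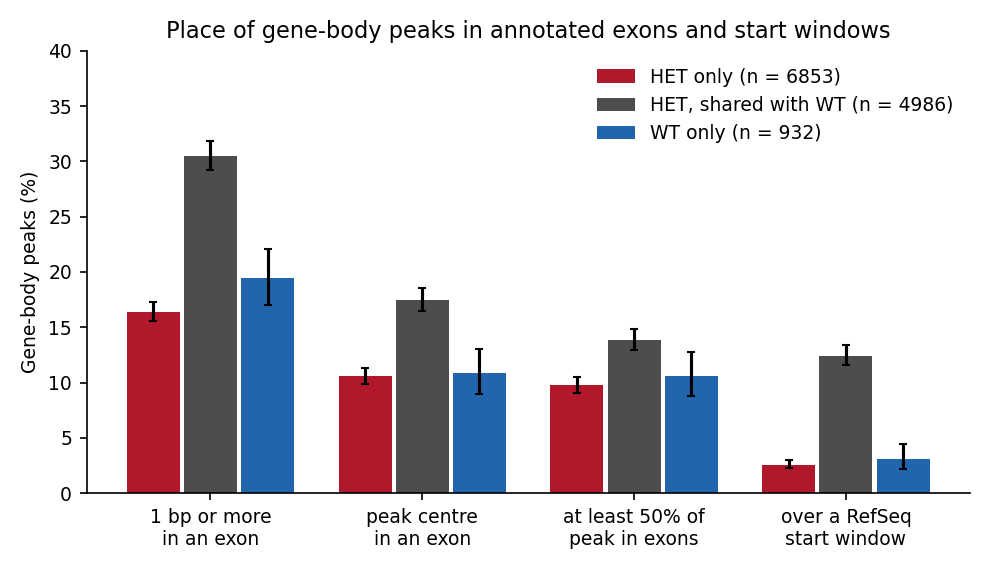
Shares (y axis, %) of HET-only, shared and WT-only gene-body peaks that touch an exon, have their centre in an exon, lie at least 50% in exons or touch a RefSeq start window; bars carry 95% Wilson intervals for counting error. HET-only and WT-only peaks stand below shared peaks in each measure, with 16.4%, 19.4% and 30.5% touching an exon.

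Within their hosts the peaks were spread almost evenly. Of the 6423 peaks (93.7%) that lay in a single gene body, 17.3% fell in the first 20% of the host, counted from its start, and 20.5%, 20.1%, 20.8% and 21.3% in the following 4 stretches of equal length. The first stretch loses the bases near the start by the rule. The median distance to the nearest gene start was 21001 bp, and 5262 peaks (76.8%) were within 50 kb of one. The X chromosome held 72 of the peaks, or 1.39 per Mb of gene body, against 5.83 per Mb on the autosomes together and 4.92 to 6.50 on single autosomes. Shared gene-body peaks were also sparser on X, at 1.56 against 4.22 per Mb, and the HET-only share there was 47.1% against 54.9% to 60.6% on single autosomes. The sex of the ATAC-seq animals was not given in the labels used here.

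Hosts were long genes. Their median body length was 73.9 kb, against 3.29 kb for all annotated genes and 37.2 kb for the 1958 genes that held a shared gene-body peak and no HET-only peak. Of 239 genes longer than 500 kb, 215 (90.0%) were hosts. Genes with a WT-only gene-body peak had a median of 108.7 kb, so the length was not particular to the mutant list. Among the 18050 genes tested for RNA, the share of hosts went from 2.35% of those up to 10 kb through 34.9% at 50 to 100 kb to 92.3% above 500 kb. By RNA level the share of hosts was 9.11%, 16.5%, 23.1% and 29.0% in 4 equal groups of tested genes, from the lowest to the highest. Longer genes were also the more highly expressed, with median bodies of 8.32, 18.9, 25.4 and 34.9 kb in these groups.

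**Figure D3:**
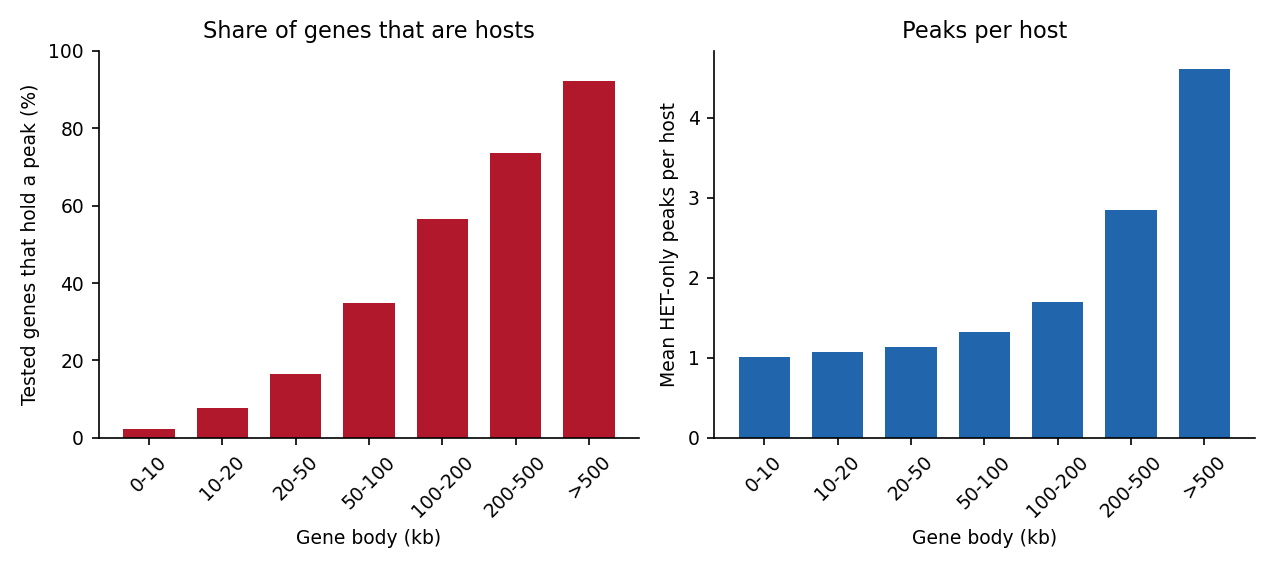
Left, share of RNA-tested genes that hold at least 1 HET-only gene-body peak (y axis, %) by length of the gene body in kb (x axis); right, mean number of such peaks per host in the same classes. The share rises from 2.35% to 92.3% and the mean from 1.01 to 4.61 peaks per host.

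Most hosts, 2913 (67.4%), held 1 HET-only peak, 785 held 2, 416 held 3 or 4, 188 held 5 to 9 and 20 held 10 or more. Protein-coding genes were 79.9% of hosts and long noncoding RNA genes 10.7%, by RefSeq biotype. A shared gene-body peak was also present in 1543 hosts (35.7%), and a WT-only one in 485 (11.2%). The gene start was open in both lists for 47.1% of hosts and in the HET list only for 8.40%, with 21.0% and 3.61% over all genes. Both shares were thus higher among hosts than over all genes, and hosts are longer and more highly expressed than genes in general. For the 873 genes with a WT-only gene-body peak, 485 of them hosts as well, the shares were 50.6% and 8.71%. Genes with a shared gene-body peak and no HET-only peak had 39.6% and 6.13%. An open start was thus not particular to hosts.

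The largest numbers were in annotated genes of unusual extent. Gm20388, 4435 kb on chromosome 8, held 46 peaks, and 32 of these also lay in another gene; 207 other genes lie wholly inside it. Fgfr2, the gene of a fibroblast growth factor receptor, is annotated over 2961 kb in the release used, with 69 other genes inside, and 11 of its 17 peaks lay in another gene as well. Dab1, the reelin adaptor, the scaffold gene Magi2 and Nav2, a gene of neurite growth, held 14 each, none of them in another gene. Lsamp, a cell adhesion molecule of the limbic system, held 13, and Csmd1, Dlgap1 and the splicing regulator Rbfox1 12 each. Per 100 kb of body the densest of the 20 were Gse1 with 3.68, Nedd4l with 3.33 and Msra with 3.30, and all 13 peaks of Gse1 also lay in Gm20388 or another gene. Among the 20, Lsamp (2197 kb) and Dlg2 (1973 kb) are far longer and had 0.592 and 0.558 per 100 kb.

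Lists of neuronal genes were read against genes of like length. Of 69 tested synaptic adhesion genes, 48 (69.6%) were hosts and together held 208 peaks, the most in Lsamp, Csmd1, Kirrel3 and Tenm2; 66.2% of all tested genes in the same length classes were hosts. Of 24 glutamate receptor genes 17 (70.8%, against 63.3% by length) were hosts, with 11 peaks in Grin2a, which encodes an NMDA receptor subunit, and 7 each in Grid1 and Grik4. Of 46 voltage-gated ion channel genes 31 (67.4% against 56.3%) were hosts, led by the calcium channel gene Cacna1e with 10 and the potassium channel gene Kcnma1 with 9. Of 39 axon guidance genes 26 (66.7% against 60.7%) were hosts, among them Slit3, Unc5d and Sema6d. The shares in these 4 lists were 3 to 11 percentage points above those of genes of like length, a difference that was not tested.

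The GABA receptor list had 10 hosts among 15 (66.7% against 50.2% by length), with 8 peaks in Gabbr2, the partner subunit of the metabotropic GABA receptor. Presynaptic genes had 23 of 42 (54.8% against 43.2%), led by Erc2 with 9 and Syn3 with 8, and actin genes 32 of 59 (54.2% against 44.9%), led by Kalrn and Phactr1 with 8 each. Neuronal transcription factors had 29 of 59 (49.2% against 48.0%). Lists tied to Adnp in the title of the series or in the wider field were at or under the share of genes of like length. Of 59 tested Wnt pathway genes 15 (25.4% against 28.2%) were hosts, of 55 microtubule genes 21 (38.2% against 39.2%), of 55 autism risk genes 24 (43.6% against 48.5%), and of 37 BAF and ChAHP genes 8 (21.6% against 23.4%). In these lists Ank3 held 11 peaks, Auts2 7, Prickle2 5 and Dpf3 5.

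The RNA of the hosts was then compared between 7 HET and 7 WT libraries. Of 4322 hosts, 3507 passed the filter on low counts and 815 were not tested, so the values below are not those of all hosts. By edgeR's quasi-likelihood test at an adjusted p under 0.05, 29 hosts rose (0.827%) and 14 fell (0.399%). Over all 18050 tested genes 0.587% rose and 0.382% fell, or 0.97% in either direction. At an unadjusted p under 0.05 there were 994 hosts (28.3%), against 22.2% of all tested genes. The median log2 fold change was 0.01 over hosts and 0.02 over all tested genes. Every HET library lay above every WT library for 19 of the 3507 hosts and below for 6. Over all 18050 tested genes these numbers were 78 and 51 (0.432% and 0.283%). DESeq2 called 5.47% of hosts risen and 5.13% fallen, against 4.25% and 4.07% of all tested genes, and limma-voom 6.93% and 7.19% against 5.16% and 5.29%. The called share was thus small by edgeR and somewhat higher in hosts than over all tested genes, a difference that was not tested. Among 1540 tested genes with a shared gene-body peak and no HET-only peak, edgeR called 0.714% risen and 0.649% fallen. Of these genes 26.6% had an unadjusted p under 0.05. A share above that of all tested genes was thus not particular to hosts. Hosts are also more highly expressed, with a median log2 CPM of 4.99 against 3.94 over all tested genes.

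The number of called hosts depended on single libraries. It was 3 or 4 risen when HET 1, HET 2, HET 4, HET 7, WT 1, WT 2, WT 3, WT 5 or WT 6 was left out, and 10 without WT 7. It was 181 without HET 6 and 193 without WT 4, and fallen hosts numbered 0 to 2 when any of these 10 libraries was left out, 115 without HET 6 and 290 without WT 4. The calls over all genes moved alike. Without HET 6, 5.16% of hosts rose and 3.28% fell, against 3.37% and 2.80% of all tested genes. Without WT 4 it was 5.50% and 8.27%, against 4.32% and 5.06%. Fallen hosts numbered 5 without HET 3 and 22 without HET 5. Labelled as frontal cortex, the libraries differed in markers of excitatory neurons. The summed level of the 10 markers in the list was 1507 CPM in HET 4, 2329 in HET 1 and 3111 in WT 4, and between 3892 and 9160 in the others. Slc17a6, which is also in the thalamic list, gave 453 of these CPM in HET 4, 249 in HET 1 and 101 in WT 4. The sum is thus not one of cortical markers alone. Without these 3 libraries, a choice made after the values were seen, 69 hosts rose and 136 fell (1.97% and 3.88%, against 1.48% and 2.32% of all tested genes). The labels do not describe the dissection of single libraries, and fewer cells of a type and less RNA per cell cannot be told apart in bulk tissue.

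Of the 43 called hosts, Best1, Sec24d and Card10 passed in all 14 fits that left out 1 library, and all 3 were higher in HET. Each of the other 40 lost the call in at least 1 of these fits. Best1, which encodes the chloride channel bestrophin, had 3.79, 6.52 and 7.30 CPM as lowest, median and highest HET values and 0.616, 1.19 and 2.25 in WT. The 2 groups did not overlap, and HET was 4.30-fold higher (log2 2.10, SE 0.26, edgeR adjusted p = 0.00159). Its HET-only peak, chr19:9992808-9993306, is 499 bp wide, overlaps exons by 271 bp and lies 9.77 kb from the nearest WT peak; the Best1 start was open in neither list.

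Sec24d encodes a coat protein of vesicles that leave the endoplasmic reticulum. Its level was 22.7, 27.2 and 28.0 CPM in HET and 12.6, 15.8 and 21.0 in WT, again with no overlap. HET was 1.64-fold higher (log2 0.71, SE 0.10, edgeR adjusted p = 0.00364), and the peak of 424 bp, chr3:123298198-123298621, is intronic. Its gene start was open in both lists. Card10, which encodes a scaffold of NF-kappa-B signalling, had a median of 16.7 CPM and a highest value of 23.6 in HET, and a lowest, median and highest value of 6.33, 7.57 and 9.10 CPM in WT. It was 2.25-fold higher without overlap (log2 1.17, SE 0.16, edgeR adjusted p = 0.00379). Its peak, chr15:78799142-78799286, is among the narrowest, at 145 bp, and wholly in exon sequence.

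Eya4, a transcriptional coactivator with phosphatase activity, was the fallen host with the smallest p. Its level was 2.26, 3.14 and 3.86 CPM in HET and 4.03, 6.59 and 8.18 in WT, with every HET library below every WT library. The log2 fold change was -1.06 (SE 0.17, edgeR adjusted p = 0.0197), and the call was lost without HET 1, HET 2, HET 7, WT 1 or WT 5, with an adjusted p of up to 0.0606. The HET-only peak in Eya4 is 192 bp wide and intronic, 413 kb from the nearest WT peak, and the gene start was open in the HET list only.

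E2f2 had 1.45, 2.00 and 2.62 CPM in HET and 0.805, 1.05 and 1.42 in WT, without overlap. It rose by a log2 of 0.90 (SE 0.17, edgeR adjusted p = 0.0375), and the call held in 4 of 14 fits with a library left out. Its main start was open in neither list, and its HET-only peak was the one over the RefSeq start printed above. That was the only peak over a start window among the 58 peaks in called hosts. Of the 135 tested hosts with a peak over a RefSeq start of their own, E2f2 was the sole host called, 0.741% of them. At the other starts shown, the test was not passed: the log2 fold change was -0.36 for Prkar1b (edgeR adjusted p = 0.0873), -1.76 for Egr2 (0.0809), -1.10 for Tbr1 (0.193) and 0.06 for Cntn1 (0.533).

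**Figure D4:**
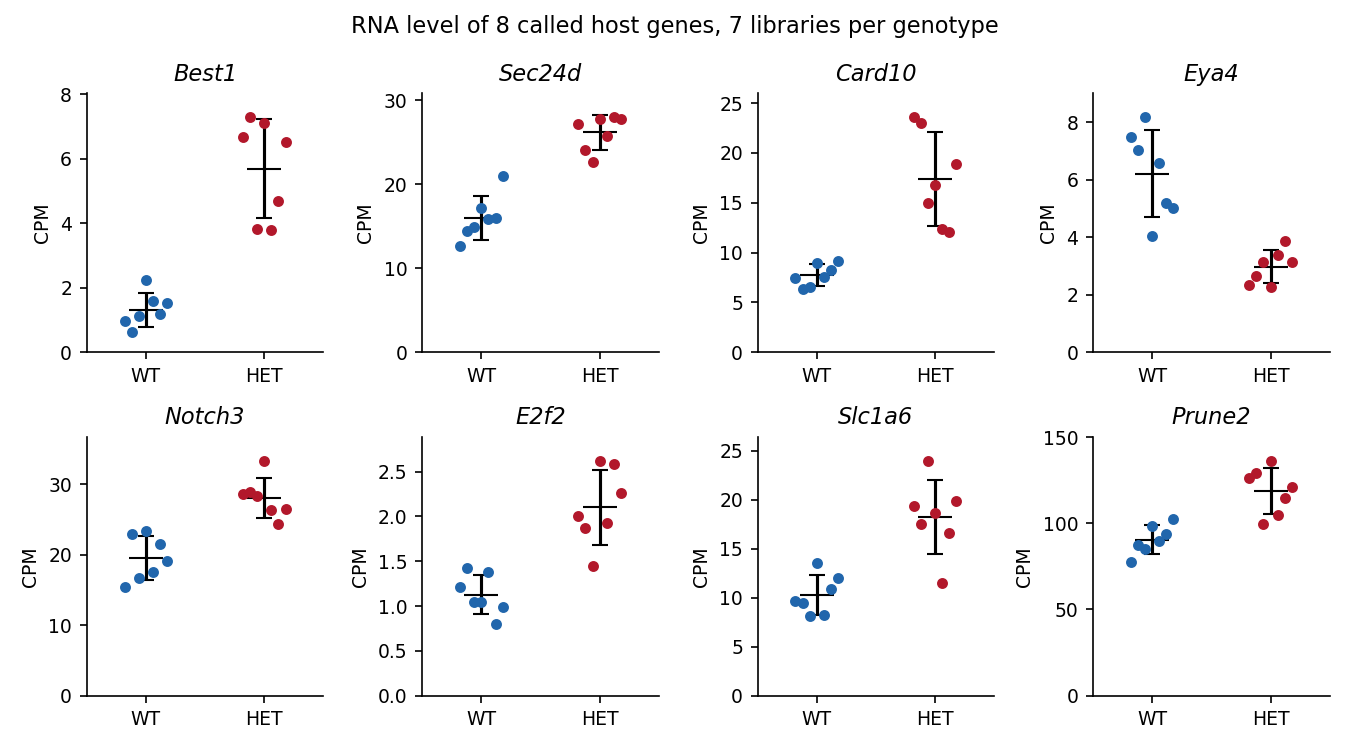
RNA level in CPM (y axis, from 0) of 8 called hosts in 7 WT and 7 HET libraries; points are libraries, the horizontal mark is the mean and the whiskers are 1 SD. Best1, Sec24d, Card10, Eya4, Notch3 and E2f2 show no overlap between genotypes, and Slc1a6 and Prune2 overlap.

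The other called hosts include genes of membrane transport and signalling. Notch3, the Notch receptor of vascular mural cells, held 2 HET-only peaks of 341 and 378 bp and rose from 19.5 ± 3.11 to 28.1 ± 2.84 CPM (mean ± SD, n = 7 each). This is a log2 fold change of 0.52 (edgeR adjusted p = 0.0352), and the call was lost in 9 of 14 fits with a library left out. Of the 8 mural markers, Notch3 included, 5 were higher and 3 lower in HET with a median log2 fold change of 0.04, and Notch3 was the one called. The other hosts among them stood at 0.02 (Pdgfrb) and 0.17 (Abcc9). Slc1a6, a glutamate transporter gene, went from 10.3 ± 2.00 to 18.2 ± 3.78 CPM (log2 0.83, edgeR adjusted p = 0.0332). Gabrr2, a subunit of a GABA-gated chloride channel, was low and rose by a log2 of 1.74 (edgeR adjusted p = 0.0352). Its HET-only peak was 143 bp wide. Cacnb2, a calcium channel subunit gene with 2 HET-only peaks, rose by a log2 of 0.34 (edgeR adjusted p = 0.0461). Prune2, with peaks of 556 and 404 bp, rose by a log2 of 0.39.

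Among the fallen hosts, Thrb, a thyroid hormone receptor gene, had a log2 fold change of -0.75 and Ephb3, a receptor of axon guidance, one of -0.87. Calm3, a calmodulin gene, stood at -0.38. Cxcl12, a chemokine of neuronal migration, was below every WT library in all HET libraries (log2 -0.36), and its HET-only peak of 446 bp lies wholly in exon sequence. Pantr1, a noncoding RNA gene, fell by a log2 of 0.99 and held peaks of 907 and 266 bp. Edge cases of annotation also occur: the peak assigned to A830082N09Rik, a noncoding RNA that rose, overlaps the end of the gene body by part of its length. The largest adjusted p among called hosts was 0.0499 with edgeR, and the smallest called changes were a log2 of 0.23 upward and -0.31 downward.

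Over the 43 called hosts, 33 held a single HET-only peak, as did 2233 of all 3507 tested hosts. Of the 58 peaks 42 were in introns and 16 touched an exon. Over all HET-only peaks 1125 of 6853 (16.4%) touched an exon, a lower share, and the difference was not tested. The gene start was open in both lists for 19 called hosts, in the HET list only for 5 and in neither list for 19. Over all 3507 tested hosts these numbers were 1965, 330 and 1128. Of the 29 risen hosts, 14 had every HET library above every WT library, and of the 14 fallen hosts 2 had every HET library below. Over all tested genes, called or not, these separations held for 0.432% and 0.283%. All 58 are peaks of the mutant list, so the direction of the RNA followed no single direction of the peaks: RNA was higher in 29 hosts and lower in 14.

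RNA change was also read by the number of HET-only peaks in the gene. The median log2 fold change was 0.02 for 14543 tested genes without any, 0.02 for 2233 hosts with 1, and 0.00 for 690 hosts with 2. It was -0.04 for 385 hosts with 3 or 4, -0.11 for 181 with 5 to 9, and -0.18 for 18 with 10 or more. Of the 199 tested hosts with 5 or more peaks, edgeR called 1, 3110039I08Rik with 6 peaks, which rose by a log2 of 0.61. At an unadjusted p under 0.05 there were 64 of 199 (32.2%), and DESeq2 called 9 risen and 14 fallen (11.6% in all, against 8.33% of all tested genes). These genes are long, with a median body of 461 kb, and highly expressed. Of 765 tested genes of 200 to 500 kb, 562 were hosts, with a median of -0.01 against 0.11 for the others. Above 500 kb 203 of 220 were hosts, with a median of -0.02 against 0.40 for the few others. Long genes without a HET-only peak thus had medians above 0, and the part of length was not tested. Hosts that also held a shared peak had a median of -0.04 and those without 0.03.

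Library by library, the groups overlapped. The median over hosts with 5 or more peaks, as log2 CPM relative to the WT mean, was -0.23 to 0.02 in HET libraries and -0.20 to 0.17 in WT libraries. The 3 lowest values were those of HET 4 (-0.23), WT 4 (-0.20) and HET 1 (-0.19), the same libraries that were lowest in the summed excitatory markers. Of 10 excitatory neuron markers, 9 were lower in HET, and the median over the 10 was -0.98 (log2). The other, Slc17a6, was higher (log2 1.51) and is counted among the thalamic markers as well. By edgeR none of the 10 was called and 7 had an unadjusted p under 0.05, by DESeq2 none was called, and by limma-voom 2 were. Their summed level was 1507 to 7111 CPM in HET and 3111 to 9160 in WT. None was at 0 in any library, and the lowest was Emx1 at 0.154 CPM. All 10 striatal and all 9 thalamic markers were higher in HET without a call by edgeR (0 and 5 at an unadjusted p under 0.05; 0 and 1 called by DESeq2), with sums of 235 to 3038 and 250 to 2114 CPM in HET and 239 to 2151 and 175 to 761 in WT. Gbx2 was the thalamic marker listed at 0 in a library. All 10 microglial and all 5 blood markers were lower in HET without a call by edgeR (5 and 5 at an unadjusted p under 0.05; 1 and 1 called by DESeq2). Their sums were 296 to 423 and 106 to 201 CPM in HET and 383 to 438 and 136 to 438 in WT, none was at 0 in a library, and their part in the host values was not tested. With the excitatory marker mean as a covariate, the median over hosts with 5 or more peaks was -0.003 in place of -0.11, and with 3 marker means 0.003. Without HET 1, HET 4 and WT 4 it was -0.09. Since 9 of 10 excitatory markers were lower in HET, the excitatory covariate overlaps with genotype. Marker level and genotype cannot be told apart in these fits, and the cause of the shift was not tested.

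**Figure D5:**
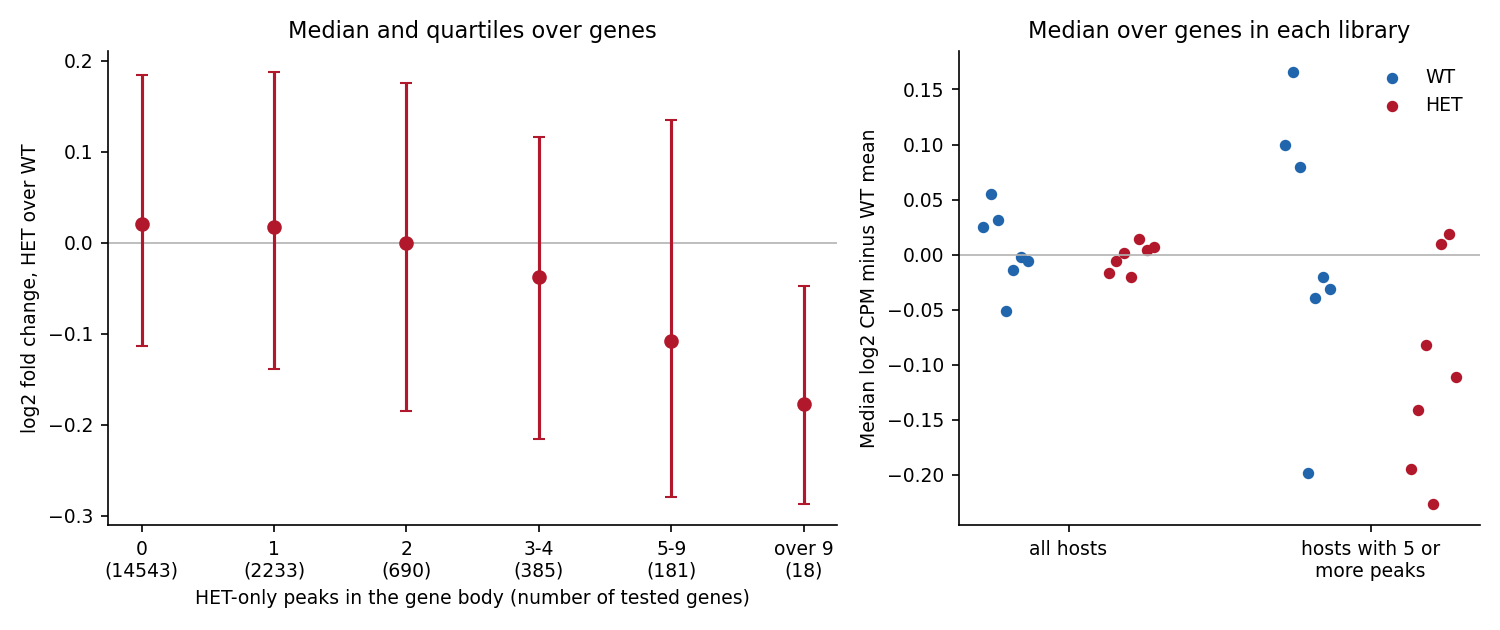
Left, median and quartiles of the log2 fold change (HET over WT, y axis) for tested genes by number of HET-only gene-body peaks (x axis); right, median log2 CPM relative to the WT mean over all tested hosts and over hosts with 5 or more peaks, 1 point per library. The medians go from 0.02 without a peak to -0.18 with 10 or more, and HET and WT libraries overlap.

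Single genes with many peaks showed both signs, and none of those below passed the test. Grin2a had 51.9, 104 and 148 CPM as lowest, median and highest HET values and 76.7, 165 and 229 in WT (log2 -0.73, edgeR adjusted p = 0.121). Kalrn had 129, 348 and 533 in HET and 276, 598 and 828 in WT (log2 -0.88, edgeR adjusted p = 0.124), and its lowest WT value was that of WT 4. Lsamp lay higher, at 328, 442 and 488 CPM in HET and 316, 328 and 367 in WT (log2 0.35, edgeR adjusted p = 0.0676). Magi2 stood at 84.0, 101 and 113 in HET and 101, 126 and 154 in WT (log2 -0.38, edgeR adjusted p = 0.0760). The genotypes overlapped in each of these 4 genes.

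The 8 other tested hosts with 12 or more peaks also overlapped between genotypes; Gm20388 and Gm37240 (13 peaks) were not tested. The log2 fold change was -0.53 for Dlgap1, -0.31 for Csmd1, -0.27 for Dab1, -0.24 for Rbfox1 and -0.18 for Nav2. It was 0.40 for Ctnna3, which encodes an alpha-catenin and is low in cortex at 1.91 CPM in WT, -0.04 for Fgfr2 and -0.08 for Gse1. Of the hosts named for their wide peaks, Zfp462 stood at 0.33 (edgeR adjusted p = 0.0809), Reep1 at 0.07, Plpp1 at 0.18, Dlgap3 at -0.38 and Bsn at -0.41. The hosts of wide HET-only peaks thus had values of both signs.

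By list, few hosts passed the test. Among tested hosts, Gabrr2 rose in the GABA receptor list and Cacnb2 in the ion channel list, Thrb fell among neuronal transcription factors and Arpc3, a subunit of the actin-nucleating Arp complex, among actin genes. Of the 32 actin hosts 11 had an unadjusted p under 0.05 (34.4%), and DESeq2 called 0 risen and 6 fallen (18.8%), limma-voom 2 and 7. The counts at an unadjusted p were 13 of 29 for transcription factor hosts (44.8%; DESeq2 1 risen and 2 fallen), 12 of 31 for ion channel hosts (38.7%; 2 and 3) and 1 of 10 for GABA receptor hosts (DESeq2 1 and 0). Over all tested genes these shares were 22.2% at an unadjusted p and 8.33% by DESeq2. By edgeR no host was called among synaptic adhesion genes (19 of 48 at an unadjusted p under 0.05, or 39.6%; DESeq2 4 risen and 6 fallen, or 20.8%) or glutamate receptor genes (7 of 17; DESeq2 1 and 2). The same held for axon guidance (9 of 26; DESeq2 2 and 3), presynaptic (12 of 23, or 52.2%; 2 and 2, or 17.4%) and microtubule genes (4 of 21; 1 and 0). It also held for autism risk genes (7 of 24; DESeq2 1 and 0), Wnt genes (4 of 15; 2 and 0) and BAF and ChAHP genes (1 of 8; 0 and 0). Counted over whole lists and not over hosts alone, edgeR called 1 of 69 adhesion genes, 2 of 59 Wnt genes and 1 of 55 autism risk genes. The median over presynaptic hosts was -0.18 (log2), 7 of 23 being above 0, and that over actin hosts -0.14, 11 of 32 being above 0. Hosts of both lists thus lay mostly below 0, and no test of a list was made. The whole lists, hosts and other genes together, had medians of -0.17 (presynaptic) and -0.13 (actin). At an unadjusted p under 0.05 were 50% of all presynaptic, 37.7% of adhesion and 39.1% of ion channel genes. For transcription factor and actin genes it was 47.5% and 37.3%. In these lists the values were thus not particular to hosts. Wnt hosts stood at 0.09 and BAF and ChAHP hosts at 0.06, beside 0.02 for all tested genes. The excitatory marker genes include 5 hosts, or 50% against 19.4% by length, all with log2 fold changes below 0. Of all 10 genes in that list, hosts or not, 9 were below 0. It had the largest share of hosts among the cell type marker lists. Other marker lists went both ways, with 37.5% against 16.9% for mural and 22.2% against 44.9% for thalamic genes.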

How the data were processed

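RNA-seq covered 7 HET and 7 WT libraries and ATAC-seq 1 merged peak list per genotype. The authors deposited unscaled gene counts for each RNA library; per the file headers featureCounts 2.0.1 summed exons of the Ensembl GRCm38 annotation, release 102, with strand setting 0, so overlapping and antisense genes cannot be separated. The deposited peak lists hold chromosome, start and end on mm10 and no height. Bowtie2 2.4.4, SAMtools 1.9 and MACS3 were named for ATAC-seq and STAR for RNA, per the submitters' processing notes; caller settings are unknown here. Overlaps needed 1 bp. Gene bodies ran from the lowest start to the highest end of the counted exons.

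Counts were filtered with filterByExpr, normalised by TMM, and edgeR 4.0.16 (two-sided quasi-likelihood test, robust) was used, with Benjamini-Hochberg adjustment over 18050 genes. On simulated data, 71 of 100 genes changed 2-fold and 93 of 100 changed 4-fold were recovered, with 8 false calls. Genes were drawn independently of each other there. Differences between libraries that many genes share, such as those in excitatory markers, were therefore absent. These rates thus need not hold for the real libraries. P-values measure the spread between libraries. The members and lists were chosen with earlier results of these data known. Named genes were Adnp, the first 20 called hosts by p, the hosts with most or widest peaks, and leading hosts of each list; other names were picked after their values were seen. Some genes are not reported here. No genome of the build was used here, so sequences come from RefSeq start windows in place of the peak centres that had been planned.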

Additional observations from a re-analysis of the deposited data

Results flagged for a closer look

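In 44 groups of 7 libraries (HET and WT levels of the named called hosts and Adnp), 4 held a library far from the others by Dixon's criterion; chance flags about 1 in 20 groups. 9530026P05Rik stood at 3.47 CPM in HET 6, and at 1.35 to 2.11 in the other HET libraries. Ppfia1, a scaffold gene of the liprin family, stood at 55.0 CPM in HET 3 against 47.6 to 50.8. Mroh7 was at 7.49 CPM in WT 4 against 3.95 to 5.27 in the other WT libraries, and Eif2ak4, a kinase gene of the amino acid response, at 25.1 CPM in WT 5 against 21.5 to 22.7.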

How the results depend on the processing

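The count of called hosts (29 risen, 14 fallen) moved with most settings. It was 192 and 180 with DESeq2, 243 and 252 with limma-voom and sample weights, and 18 and 9 without a filter. It was 3 and 0 with the excitatory marker mean as a covariate, 5 and 1 with 3 marker means, 156 and 138 at an adjusted p under 0.1, and 69 and 136 without the 3 libraries lowest in summed excitatory markers. For hosts of peaks among the widest HET peaks it was 10 and 4. Leaving out 1 library gave 3 to 193 risen and 0 to 290 fallen hosts. With the replicate number as a block it was 2 and 0; same-numbered libraries correlated between -0.284 and 0.334, with 2 of 7 pairs over 0.1, and 1 HET library correlated best with its own number, so the numbers were not taken as pairs. All 43 called hosts were also called by DESeq2 and by limma-voom, and 3 with the excitatory covariate. The peak count of 6853 was 2049 among the widest HET peaks. The share touching an exon (16.4%) was 10.6% by peak centre, 9.75% with at least 50% of the peak in exons and 21.4% among the widest HET peaks. The host median stayed between -0.003 and 0.021. The causes were not tested. Depth and heights of the peak lists were not used here, and no error between animals can be given for any peak.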
